A study of Mus musculus with 2 samples.

Results

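The genes described here are 10 that serve antigen presentation by MHC class I, and they were followed by name through every kind of cell that could be gated in CD45+ cells of B16 tumors. They are the classical class I heavy chain genes H2-K1 and H2-D1, the light chain gene B2m, the peptide transporter genes Tap1 and Tap2, the loading factor gene Tapbp, the immunoproteasome genes Psmb8, Psmb9 and Psmb10, and Nlrc5, a transcriptional activator of class I genes. The 10 were taken by gene symbol out of 27998 genes in the list, by a rule that uses no measured value, although earlier results of these data were known when they were picked. All 10 were found in the list.

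The cells were live CD45+ cells of B16 tumors, mouse melanomas grown under the skin. Droplet-based scRNAseq of RNA 3' ends gave the counts. The hosts were mice with the human LAIR1 transgene that Vav-cre turns on in blood-forming cells, bred on the LAIR1-/- C57BL/6J background, and aged 6 to 8 weeks by the labels. Both groups carried these alleles, so that the transgenic receptor is human and the tumor and matrix are of mouse. There was 1 library of mice given the anti-LAIR1 antibody h219-LLG and 1 of mice given the control antibody. How many mice went into a library was not stated in the sources used.

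With 1 library per antibody, the antibody and every other difference between the libraries cannot be told apart, and no p-value was computed. Levels are given as CPM, the unique molecular identifiers (UMIs, 1 per captured RNA molecule) of a gene divided by all UMIs of its cell class in 1 library and scaled to 1000000. Intervals are at 95% and cover counting error only.

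The anti-LAIR1 library held 48834592 UMIs and 6909 kept cells, and the control library held 40339654 UMIs and 5332 kept cells. The median depth of kept cells was 4811 and 5609 UMIs. Cells were gated on UMIs of lineage genes, none of them a member, and 91.1% and 89.7% of kept cells fell inside 1 gate. Of 19 gates, 18 held cells, and 13 held at least 25 cells in each library and were compared between libraries. Neutrophils, type 1 and type 2 conventional dendritic cells (cDC1 and cDC2), migratory dendritic cells (DCs) and melanoma cells were too few, so that only their levels are given. There were 22 and 9 cDC1s, 45 and 14 cDC2s, 33 and 20 migratory DCs, and 57 and 22 neutrophils in the anti-LAIR1 and control libraries. The gate for gamma-delta T cells held 0 cells, because the receptor gene it needs, Trdc, is not in the list used here. The gate for experienced CD8 T cells went against its name: Lef1, a gene of resting T cells, was found in 87.1% and 84.5% of its cells. These are called CD8 T cells with effector transcripts, after the rule that chose them. Of the rule's genes, Nkg7 was found in 98.9% and 95.9% of these cells. Ccl5 was found in 27.8% and 33.3%, Cxcr6 in 19.7% and 17.1%, Gzmb in 5.71% and 8.66% and Pdcd1 in 1.77% and 3.13%. The name thus rests mostly on Nkg7 and does not mean effector cells. The other T cell gates were also mixed: Lef1 was found in 66.8% and 74.6% of experienced CD4 T cells, and Nkg7, an effector gene, in 42.8% and 37.9% of naive CD8 T cells, so that naive and experienced name only the gate. Markers kept out of the gates were highest in their own class in each library, except those of neutrophils in the anti-LAIR1 library. There they came to 5688 CPM, against 9176 CPM in Spp1/Arg1 macrophages. The margin of cDC2s was small in that library, at 389 CPM against 379.8 in migratory DCs. All T cell gates were checked as 1 group against other classes, on 2 marker genes found in the list. Naive, experienced and regulatory T cells were thus not checked against each other. The libraries shared 13 barcodes.

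MHC class I molecules show peptides from inside the cell to CD8 T cells. The proteasome cuts proteins into peptides, the Tap1-Tap2 transporter moves these into the endoplasmic reticulum, tapasin (encoded by Tapbp) and chaperones load them, and the heavy chain reaches the surface paired with B2m. Interferon-gamma induces most genes of this pathway, Nlrc5 among them, and it replaces the catalytic subunits encoded by Psmb5, Psmb6 and Psmb7 with the immunosubunits Psmb8, Psmb9 and Psmb10. B16 cells are known for low class I at rest, which interferon can raise.

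Promoter sequences were found in RefSeq (build GRCm38.p6) for 8 of the 10 members, and 4 are shown because the genes they drive carried most of the members' UMIs or share a start region. Capitals mark the letters that were searched on both strands: GGGATTCCC, the core of the kappaB motif of class I promoters, AANNGAAA, the core read by interferon regulatory factors (TTTCNNTT on the other strand), TGACG, and CCAAT or its reverse ATTGG. Each of the first 3 is the stretch of 250 bases that ends at the base before the RefSeq start, read 5' to 3' on the gene's strand.
H2-K1 (chr17:34000348-34000597, minus strand): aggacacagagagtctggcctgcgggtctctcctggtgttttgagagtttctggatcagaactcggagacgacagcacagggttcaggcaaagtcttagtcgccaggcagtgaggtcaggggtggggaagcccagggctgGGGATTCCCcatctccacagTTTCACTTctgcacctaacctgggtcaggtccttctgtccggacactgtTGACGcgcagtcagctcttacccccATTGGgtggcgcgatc
H2-D1 (chr17:35262844-35263093, plus strand): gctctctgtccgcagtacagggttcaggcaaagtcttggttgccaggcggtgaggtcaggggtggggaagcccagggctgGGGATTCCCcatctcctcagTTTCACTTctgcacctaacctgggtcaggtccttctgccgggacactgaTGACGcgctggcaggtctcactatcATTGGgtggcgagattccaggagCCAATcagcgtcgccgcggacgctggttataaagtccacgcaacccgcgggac
B2m (chr2:122147437-122147686, plus strand): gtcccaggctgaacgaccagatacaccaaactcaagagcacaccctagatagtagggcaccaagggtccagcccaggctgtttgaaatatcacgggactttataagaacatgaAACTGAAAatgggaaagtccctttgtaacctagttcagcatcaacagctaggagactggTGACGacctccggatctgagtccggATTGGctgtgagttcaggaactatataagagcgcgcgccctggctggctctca
Psmb9-Tap1 (chr17:34187331-34187555, plus strand, the 225 bases between the RefSeq starts): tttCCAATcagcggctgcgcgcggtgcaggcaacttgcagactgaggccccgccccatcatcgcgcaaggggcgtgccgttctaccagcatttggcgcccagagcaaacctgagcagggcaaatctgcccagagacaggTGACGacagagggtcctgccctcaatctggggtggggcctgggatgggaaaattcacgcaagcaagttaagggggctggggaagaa

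TGACG followed after exactly 20 bases by ATTGG stood in the H2-K1, H2-D1 and B2m windows, and in 30 of 32851 promoter windows of that length (0.0913%) on either strand. TGACG alone stood in 17.8% and CCAAT in 33.8% of all windows. The kappaB core stood in H2-K1 and H2-D1 and in 99 windows in all (0.301%). Of the 8 members with a window H2-K1, H2-D1 and B2m held AANNGAAA, found in 21.3% of all windows. The motifs did not overlap in the stretches shown. The H2-K1 and H2-D1 windows, laid side by side at the kappaB core, had 166 identical letters of 190 (87.4%). A match is a description of the letters and was not tested as a binding site. Tap1 and Psmb9 start head to head and are read in opposite directions, so the bases between them belong to both promoters. By the GENCODE vM21 annotation of mm10, 7 of the 10 members lie on chromosome 17 within 1.35 Mb, the MHC region, B2m lies on chromosome 2, and Psmb10 and Nlrc5 lie on chromosome 8. H2-K1 and H2-D1 are near copies of each other and of the H2-Q genes, so reads could have been split or dropped among them in counting. The Psmb9 and Tap1 gene models overlap only at their starts, on opposite strands, while RNA 3' ends were counted.

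Class I transcripts were found in every immune class. The summed CPM of the 10 members was highest in migratory DCs, the class that carries antigen to lymph nodes, with 13651 in the anti-LAIR1 and 13521 in the control library. NK cells held 9009 and 8691, patrolling monocytes 9751 and 8333, regulatory T cells 7355 and 8656, and plasmacytoid DCs (pDCs) 8327 and 7561 CPM. B cells held 4865 and 4769.7 CPM, and the Spp1/Arg1 macrophages, gated on Spp1 and Arg1 without C1q, held 4434 and 4289. Melanoma cells were lowest by a wide margin, at 534 and 288 CPM. Of 17 neighboring pairs in the order of 18 classes, the interval of the ratio included 1 in 6 pairs in the anti-LAIR1 and 4 pairs in the control library. All classes of a library share its preparation, but not the depth per cell. Among immune classes the median depth went from 2920 and 4169 UMIs in neutrophils to 14170.5 and 19178 in cDC1s.

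Each heavy chain had an order of its own. H2-K1 was highest in migratory DCs, at 2919 and 2803 CPM, followed by NK cells at 2614 and 2414 CPM. It stood at 2031 and 2391 CPM in regulatory T cells, at 1795 and 1642 in pDCs, and at 1971 and 1312 in patrolling monocytes. Experienced CD4 T cells held 1855 and 1709 CPM.
Naive CD4 T cells held 1577 and 1352 CPM of H2-K1, naive CD8 T cells 1515 and 1284, CD8 T cells with effector transcripts 1518 and 1327, and B cells 1285 and 1125. Classical monocytes held 1026 and 751 CPM, C1q macrophages 1116 and 533, Spp1/Arg1 macrophages 879.9 and 664, cDC1s 546 and 635, and neutrophils 514 and 298. H2-D1 was highest in patrolling monocytes, at 2834 and 2682 CPM, with migratory DCs at 2833 and 2431 and NK cells at 2433 and 2472. Among immune classes it was lowest in cDC1s, at 1103 and 999 CPM, but neutrophils, last for H2-K1, held 2302 and 1537 CPM of H2-D1.

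B2m, the light chain that every class I heavy chain needs, was highest in migratory DCs, at 5118 and 5187 CPM, then in patrolling monocytes, at 3934 and 3509.5. Both libraries gave cDC1s the lowest immune level, 1002 and 1223 CPM. Between these stood pDCs at 2975 and 2666, NK cells at 2845 and 2818, classical monocytes at 2729.6 and 2423, naive CD4 T cells at 1804 and 1815, and B cells at 1549.7 and 1735 CPM. The first and second classes differed beyond counting error in each library for H2-K1 and B2m. For H2-D1 they did not in the anti-LAIR1 library.

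Dendritic cells were high in most genes of peptide supply. Psmb8 reached 1320.1 and 1366 CPM in migratory DCs and 1192 and 1239 CPM in cDC1s, a pair that did not differ beyond counting error. It was at 669 and 489 CPM in cDC2s, at 619.8 and 594 in pDCs, at 598 and 574 in regulatory T cells, and at 284 and 188 in B cells. Spp1/Arg1 macrophages held 193 and 165 CPM and neutrophils 86.5 and 45.9. So the cDC1s, lowest of all immune classes in B2m, were next to migratory DCs in Psmb8, on only 22 and 9 cDC1s.
Psmb9 was at 635 and 479 CPM in cDC1s and at 435 and 633 in migratory DCs, against 50.7 and 34.3 in Spp1/Arg1 macrophages. Psmb10 was highest in classical monocytes in the anti-LAIR1 library and in migratory DCs in the control library, with 221 and 209 CPM in the first class and 184 and 331 in the second. Tap1 was at 224 and 237 CPM in migratory DCs, at 219 and 172 in cDC1s and at 74.8 and 26.6 in C1q macrophages. Tap2 was also highest in migratory DCs, at 150.1 and 136 CPM. Tapbp was at 417 and 355 CPM in migratory DCs and at 333 and 249 in pDCs. For Tap1, Tap2, Tapbp and Psmb10 the interval included 1 for at least 15 of 17 neighboring pairs, so only distant places in these orders are resolved.
Nlrc5 was the least abundant member. It was at 52.1 and 41.4 CPM in migratory DCs, at 41.4 and 46.4 in regulatory T cells, at 39.4 and 45.7 in naive CD8 T cells, and at 11.1 and 12.0 in B cells. No neighboring pair of classes differed in Nlrc5 beyond counting error.

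**Figure D1:**
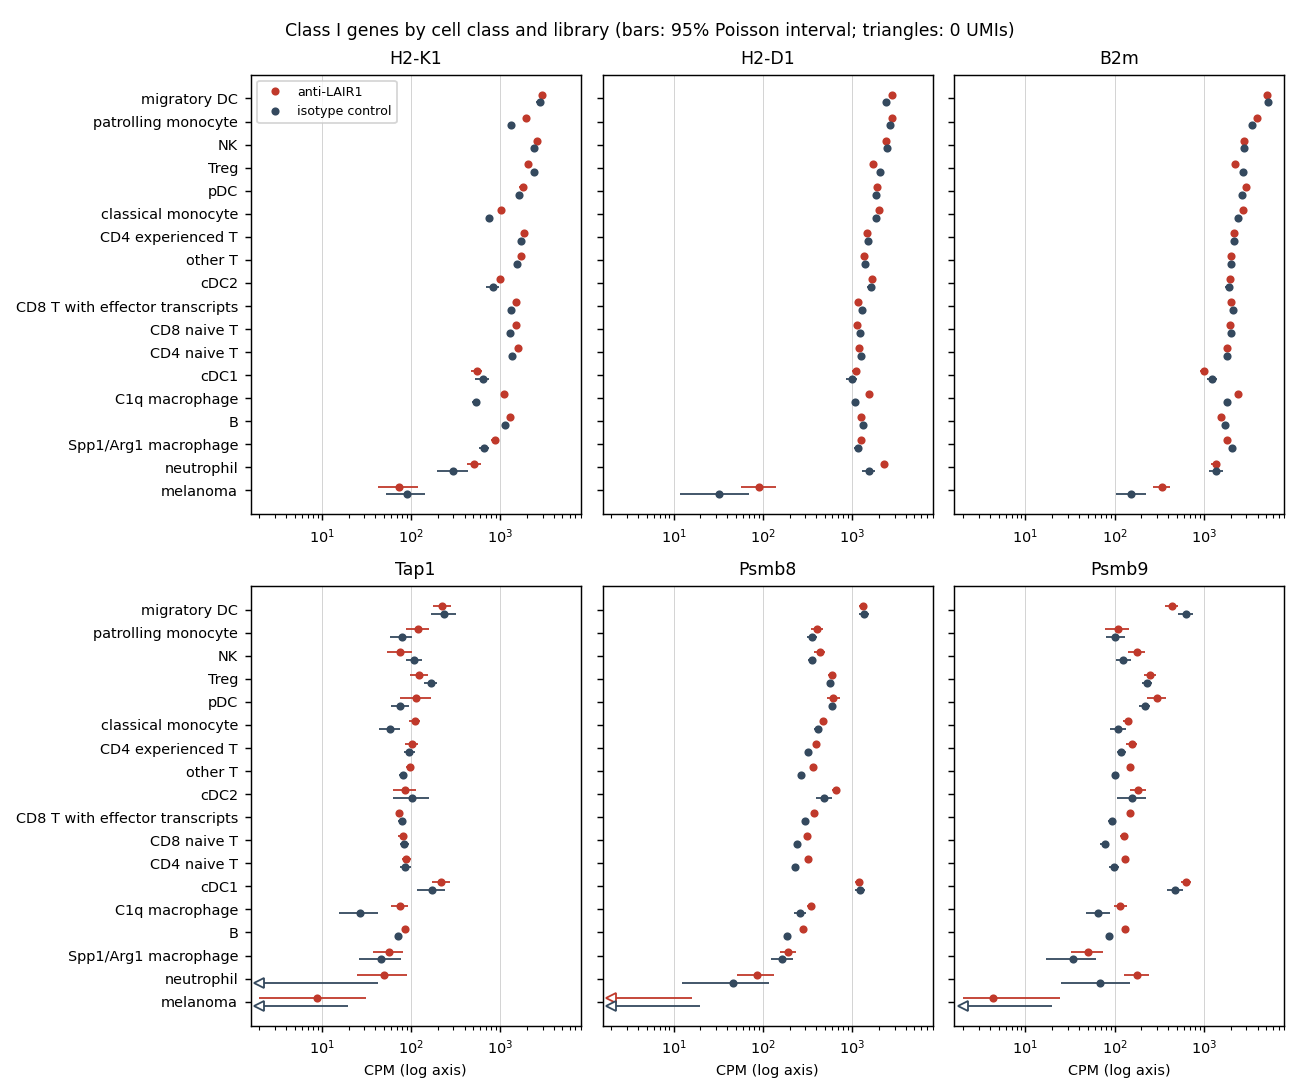
CPM on a log axis of 6 class I genes in 18 cell classes, ordered from bottom to top by the summed members, with anti-LAIR1 in red and the isotype control in dark blue. Bars are 95% Poisson intervals and open triangles mark 0 UMIs. Migratory DCs stand at or near the top for each gene, melanoma cells at the bottom, and the 2 libraries lie close to each other in most classes, with a gap for H2-K1 and Tap1 in C1q macrophages.

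Melanoma cells held little class I RNA, while constitutive proteasome subunits and the chaperone Canx were present. They came with cells taken as CD45+, and the paper calls such B16 cells contaminating. They may therefore not stand for the melanoma cells of the tumor. The gate, at least 5 UMIs of Pmel, Mlana and Dct, held 20 cells in the anti-LAIR1 and 19 in the control library, and Tyr, Tyrp1, Mitf and Sox10, pigment-cell genes outside the gate, were highest there. B2m was at 337 CPM (266 to 421) and 154 CPM (103 to 222), against 1998 and 2080.3 in gated immune cells. H2-K1 was at 74.4 and 90.5 CPM against 1476 and 1369, and H2-D1 at 91.9 and 31.9 CPM against 1372 and 1449. Both heavy chains and B2m were thus below the immune level beyond counting error in each library.
Psmb8 had 0 UMIs in both libraries, where 3 counts would be 13.1 and 16 CPM, against 369.6 and 293 CPM in immune cells. Tapbp also had 0 UMIs in both, against 127 and 119 CPM. Psmb9 had 1 and 0 UMIs, Psmb10 had 3 and 1, Tap1 had 2 and 0, Tap2 had 0 and 1, and Nlrc5 had 1 and 0. The ratio of the summed members, melanoma over immune cells, was 0.0923 (0.0766 to 0.110) and 0.0506 (0.0380 to 0.0660).
The constitutive subunits were not low: Psmb5 was at 315 and 95.8 CPM in melanoma cells against 97.1 and 86.4 in immune cells, and Psmb6 at 359 and 117 against 113 and 106. Canx, the chaperone that holds new heavy chains, was at 665 and 522 CPM against 129 and 134. Calr, a chaperone of the loading complex, was at 849 and 277 CPM against 281 and 324, so it was above the immune level in the anti-LAIR1 library only.
These UMIs can include free RNA of other cells. Of 5 genes typical of blood cells, Ptprc, Cd74, Coro1a and Laptm5 were at 0 to 0.683% of the immune level in melanoma cells of the anti-LAIR1 library and at 0.692% to 2.53% in the control library. The fifth, Arhgdib, was at 51.8% and 58.6%, and B2m at 16.9% and 7.42%. The part of free RNA in these values was not tested.
The counts come from few cells. In the anti-LAIR1 library 2 cells of 20000 UMIs or more held 87.5% of the class's UMIs, and in the control library 1 cell held 80.1%. The summed members were at 535 and 239 CPM in these deep cells and at 523 (293 to 863) and 480.4 (285 to 759) in the shallower ones. The intervals of the libraries overlapped in the shallower cells and not in the deep ones. B2m was found in 8 of 20 and 7 of 19 melanoma cells. Without melanoma-gate cells that held a Ptprc UMI, the summed members were at 7.03% (5.07 to 9.50) and 7.74% (4.43 to 12.6) of the immune level. The order of the libraries turned, but the intervals overlapped. Among the cells so removed were the deep control cell and 1 of the 2 deep anti-LAIR1 cells, each with 1 Ptprc UMI.

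**Figure D2:**
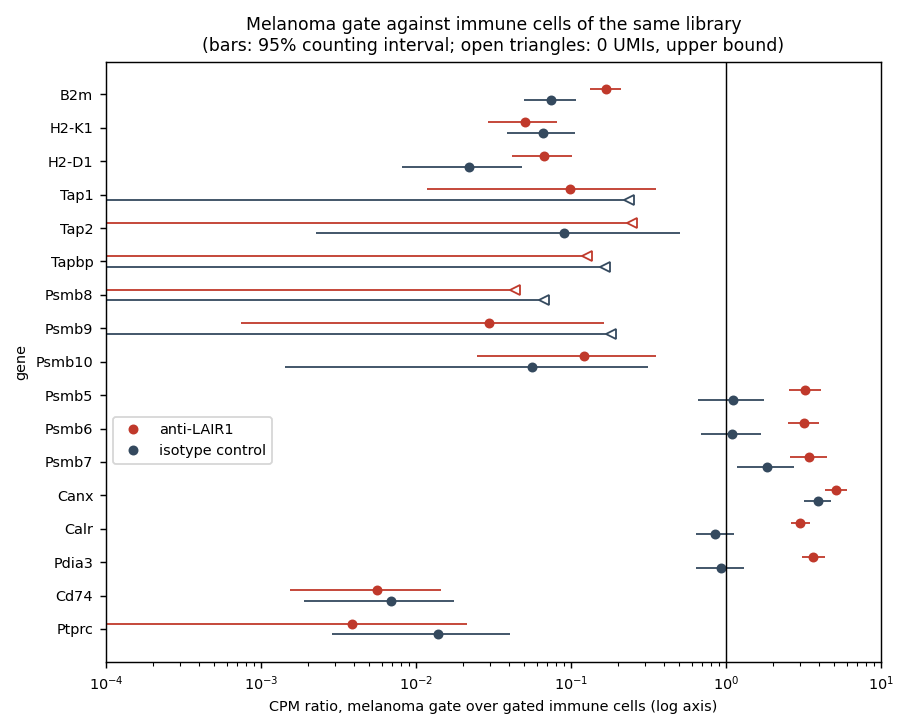
Ratio of CPM on a log axis, melanoma gate over all gated immune cells of the same library, with anti-LAIR1 in red and the isotype control in dark blue. Bars are 95% counting intervals and open triangles give the upper bound where melanoma cells had 0 UMIs; the class I genes and immunosubunits lie left of 1, the constitutive subunits and Canx at 1 or right of it.

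The share of immunosubunits among catalytic subunits does not depend on the total of a class, and it set the classes apart. It is the UMIs of Psmb8, Psmb9 and Psmb10 as a percent of those 3 plus their constitutive partners Psmb5, Psmb6 and Psmb7. Since the 2 genes of a pair may be captured unequally, the share is compared between classes and not read as subunit composition. The share was highest in migratory DCs, with 82.0% (79.1 to 84.6) and 83.3% (79.6 to 86.5). It was 77.0% and 75.7% in cDC1s, 71.1% and 74.7% in regulatory T cells, and 72.1% and 69.0% in naive CD4 T cells. Monocytes were lower, at 61.5% and 57.7% in the classical and 59.2% and 56.6% in the patrolling class.
Among immune classes the share was lowest in macrophages, at 51.1% and 37.1% in C1q macrophages (37.5% and 34.0% with cells thinned to 1000 UMIs, with overlapping intervals) and at 38.6% (33.8 to 43.6) and 31.0% (25.5 to 37.0) in Spp1/Arg1 macrophages. In melanoma cells it was 1.87% (0.512 to 4.72) and 1.54% (0.0389 to 8.28), on 4 and 1 UMIs of the immunosubunits beside 210 and 64 of their partners. The pair of Psmb9 and Psmb6 spread most among immune classes. Its share went from 19.5% and 12.2% in Spp1/Arg1 macrophages to 79.6% and 85.7% in neutrophils, the latter on few UMIs.

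**Figure D3:**
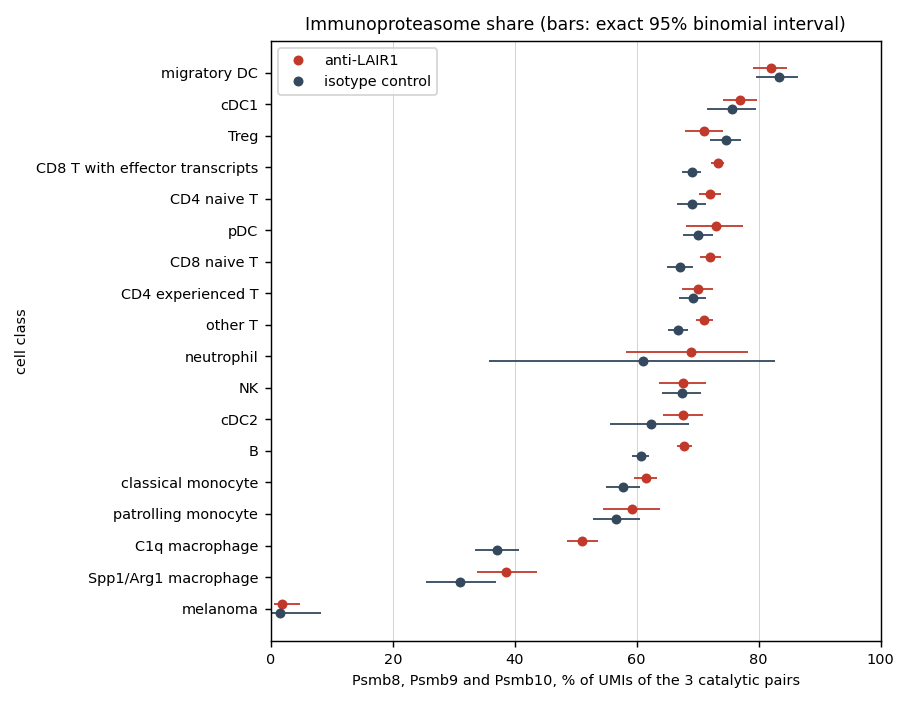
Share of Psmb8, Psmb9 and Psmb10 in the UMIs of the 3 catalytic pairs, in percent, for 18 cell classes, with anti-LAIR1 in red and the isotype control in dark blue. Bars are exact 95% binomial intervals; melanoma cells stand near 0, macrophages between 31.0% and 51.1%, and migratory DCs at 82.0% and 83.3%.

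The comparison of the libraries asks whether the RNA of class I genes differed between the antibodies. A member was measured in a class with at least 50 UMIs over both libraries, which left 120 of the possible pairs of member and class, and all ratios are anti-LAIR1 over control. Of these 120 pairs, 85 were higher and 35 lower with anti-LAIR1, where 53.8% of 72734 such pairs over all measured genes were higher. The interval lay above 1 in 51 and below 1 in 11 pairs, beside 14.8% and 12.8% over all genes. Intervals narrow with the UMIs of a gene, so this share depends on abundance. In all, 13 pairs were past 1.5-fold higher and 1 past 1.5-fold lower. Of the 13, 6 were in C1q macrophages, where 19.0% of all measured genes were past 1.5-fold higher and 5.75% lower. Patrolling monocytes held 2 of the 13, against a background of 8.74% higher and 10.1% lower. Naive CD8 T cells (9.47% higher, 5.79% lower), CD8 T cells with effector transcripts (8.24%, 5.31%), B cells (6.96%, 4.03%), pDCs (6.41%, 13.5%) and classical monocytes (9.74%, 5.67%) held 1 each. No member was past 1.5-fold higher in the remaining 6 classes, where the background was 10.8% higher and 5.32% lower in naive CD4 T cells, 7.09% and 5.65% in experienced CD4 T cells, 8.38% and 10.5% in regulatory T cells, 8.77% and 5.53% in T cells outside these gates, 5.86% and 7.47% in NK cells, and 10.4% and 13.9% in Spp1/Arg1 macrophages. The classes share the same 2 libraries, so the pairs are not independent of each other.

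H2-K1 and H2-D1, near copies in sequence and function, gave different ratios, and in 7 of 13 classes H2-K1 was higher and H2-D1 lower with anti-LAIR1. H2-K1 was higher with anti-LAIR1 in 12 of 13 classes, with the interval above 1 in 11 of them. Its ratio was 1.14 (1.11 to 1.18) in B cells, 1.18 (1.13 to 1.23) in naive CD8 T cells and 1.37 (1.25 to 1.49) in classical monocytes. The largest ratios were 1.5 (1.36 to 1.66) in patrolling monocytes and 2.09 (1.86 to 2.37) in C1q macrophages. H2-D1 was higher in 5 of 13 classes and lower in 8, with the interval above 1 in 2 and below 1 in 5. It stood at 0.961 (0.935 to 0.988) in B cells and at 0.908 (0.878 to 0.939) in CD8 T cells with effector transcripts. B2m was like H2-D1 in this, with 5 classes higher and 8 lower, from 0.805 (0.755 to 0.858) in regulatory T cells to 1.33 (1.24 to 1.42) in C1q macrophages. How reads shared by the 2 heavy chain genes were counted in each library was not tested.

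Regulatory T cells, which hold back immune responses, were the only class of 13 in which H2-K1 was lower with anti-LAIR1. H2-D1 and B2m were lower in 8 of 13 classes each, with the lowest ratios in this one. H2-K1 was at 2031 and 2391 CPM (ratio 0.850, 0.793 to 0.909), H2-D1 at 1699.6 and 2072 (0.820, 0.762 to 0.883) and B2m at 2238 and 2779 (0.805, 0.755 to 0.858). Tap1 was at 124 and 167 CPM (0.744, 0.562 to 0.977). The 3 immunosubunits were not lower, with ratios of 1.04, 1.09 and 1.03 whose intervals included 1. In all, 3 of 10 members were higher and 7 lower, none past 1.5-fold, where 49.2% of 4271 measured genes were higher. The members' median log2 ratio was -0.20 beside -0.01 over all genes. With each cell thinned to 1000 UMIs the median was -0.02. The class held 77 and 119 cells, and hemoglobin genes were at 4764 CPM in the anti-LAIR1 and 21.7 CPM in the control library. The part of either in the result was not tested.

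The transporter and tapasin genes gave the widest spread. Tap1, which binds ATP and peptide with Tap2, was measured in 12 classes and was higher in 8. It was at 110.3 and 58.1 CPM in classical monocytes (ratio 1.90, 1.40 to 2.61), and at 75.8 and 109 CPM in NK cells (0.698, 0.465 to 1.03). Tap2 was higher in 8 of 11 classes, with 1.40 (1.13 to 1.75) in naive CD4 T cells. In pDCs its 9 and 67 UMIs gave 0.570 (0.250 to 1.15) as the ratio, the only member past 1.5-fold lower in any class. Tapbp was higher in 7 of 13 classes, with the interval above 1 in 3 of them, at 333 and 249 CPM in pDCs (1.34, 1.03 to 1.73).

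The immunosubunit genes were higher in nearly every class. Psmb8 was higher with anti-LAIR1 in 13 of 13 classes, Psmb9 in 12 of 12 and Psmb10 in 12 of 13, with the interval above 1 in 8, 10 and 4 classes. In B cells, the class with most cells, Psmb8 was at 284 and 188 CPM (1.51, 1.41 to 1.61) and Psmb9 at 129.7 and 87.3 (1.49, 1.35 to 1.64). A UMI of Psmb8 was found in 60.6% and 53.8% of B cells, although those of the anti-LAIR1 library were shallower, at a median of 3501.0 against 4255.5 UMIs. With each cell thinned to 1000 UMIs these shares were 23.6% (21.8 to 25.4) and 17.8% (15.9 to 19.7). The Psmb8 ratio in B cells was then 1.37 (1.20 to 1.57). It was 1.47 under TMM scaling and as a mean per cell, also under 1.5-fold, and 1.51 to 1.55 under the other alternatives computed.
Psmb9 was at 149 and 93.3 CPM in CD8 T cells with effector transcripts (1.60, 1.43 to 1.79) and at 127 and 77.4 in naive CD8 T cells (1.63, 1.40 to 1.91). In the first of these classes the ratio was 1.09 (0.794 to 1.5) after thinning. In B cells the ratios of the partners Psmb5, Psmb6 and Psmb7 lay between 0.964 and 1.10. In NK cells they reached 1.32 with a median of 1.28, beside 1.22 for Psmb8, 1.41 for Psmb9 and 1.20 for Psmb10, and in regulatory T cells their median was 1.26, above all 3 immunosubunits. The share of immunosubunits was 67.8% (66.6 to 69.0) against 60.7% (59.2 to 62.1) in B cells, and 73.3% (72.2 to 74.4) against 69.1% (67.4 to 70.6) in CD8 T cells with effector transcripts. In NK cells it was 67.6% and 67.4%. Nlrc5 was measured in 7 of 13 classes, was higher in 3 and lower in 4, and no interval excluded 1.

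**Figure D4:**
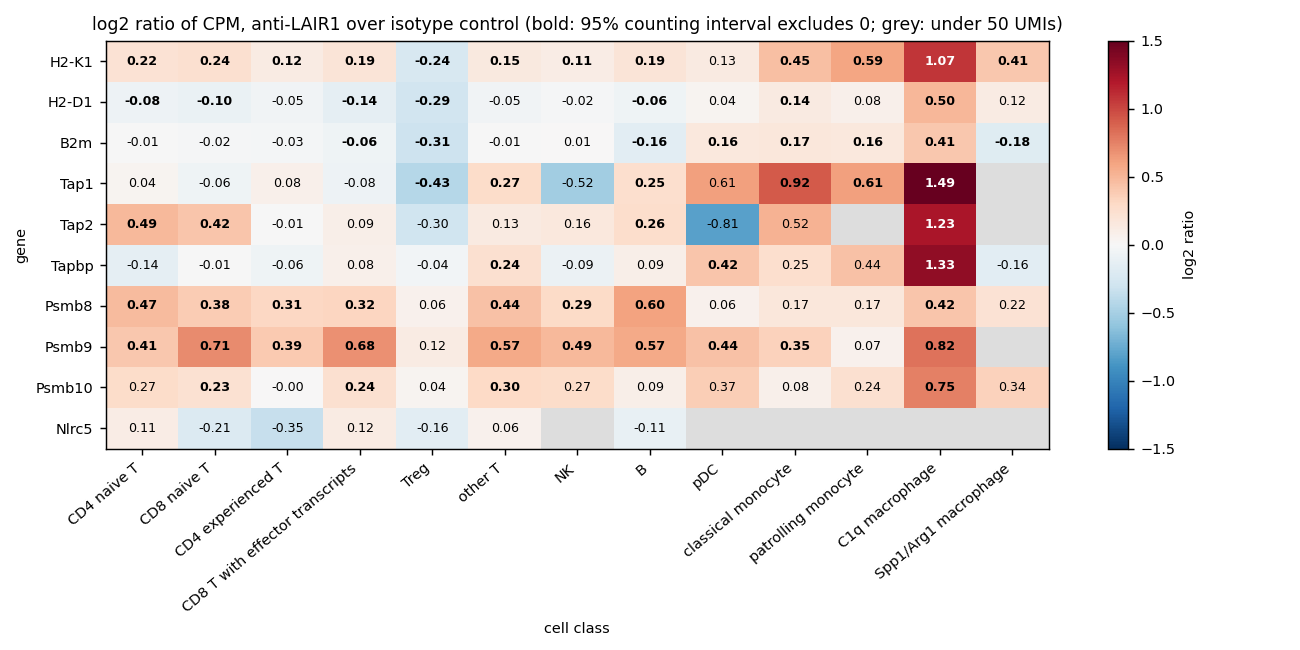
Log2 ratio of CPM, anti-LAIR1 over isotype control, for the 10 members in 13 cell classes, red where higher and blue where lower with anti-LAIR1. Bold values have a 95% counting interval that excludes 0 and grey cells had under 50 UMIs; the C1q macrophage column is red for each measured member and the regulatory T cell column is blue for 7 of 10.

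C1q macrophages, tumor macrophages that make the complement component C1q, had the largest differences. 9 of 9 measured members were higher with anti-LAIR1, each with its interval above 1, as for 18.4% of all measured genes, and 6 were past 1.5-fold higher. The members' median log2 ratio was 0.82, beside 0.11 over 4485 measured genes, of which 59.5% were higher. H2-K1 was at 1116 CPM (1058 to 1176) and 533 CPM (478 to 592), in 137 and 91 cells. H2-D1 was at 1554 and 1095 CPM (ratio 1.42, 1.30 to 1.55) and B2m at 2414 and 1817 (1.33, 1.24 to 1.42). The intervals of H2-D1 and B2m overlapped, and that of H2-K1 lay above both.
Tap1 was at 74.8 and 26.6 CPM (2.82, 1.67 to 5.04), Tap2 at 43.9 and 18.7 (2.34, 1.24 to 4.81) and Tapbp at 157 and 62.5 (2.51, 1.78 to 3.62), so all genes of peptide transport and loading among the members were past 1.5-fold. Psmb9 was at 116 and 65.6 CPM (1.77, 1.25 to 2.56), Psmb10 at 145 and 85.9 (1.68, 1.24 to 2.32) and Psmb8 at 349 and 261 (1.34, 1.12 to 1.61). Nlrc5 had 18 and 2 UMIs and was not measured. A UMI of H2-K1 was found in 81.0% and 65.9% of these cells, and in 51.1% (42.3 to 59.9) and 30.6% (21.0 to 41.5) after thinning. Depth differed between the libraries, with a median of 5968.0 and 4206.0 UMIs per C1q macrophage.

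Interferon-stimulated genes were higher in the same class, and their part in the result was not tested. The list of 8 type I interferon-stimulated genes was at 447 and 129.6 CPM in C1q macrophages, with 5 of 5 measured genes higher, and cells with at least 5 of its UMIs were 18.2% and 6.59% of the class. Without those cells, 112 and 85 were left, and 8 of 8 measured members were higher, with the interval above 1 in 6. The share over all genes was not computed for this setting. A cut in UMIs depends on depth, which differed between the libraries. H2-K1 was then at a ratio of 1.83 (1.60 to 2.11), Tap1 at 2.67 (1.33 to 5.90) and Tapbp at 2.07 (1.38 to 3.18), while B2m was at 1.11 (1.03 to 1.20), Psmb8 at 1.14 (0.927 to 1.41) and Psmb9 at 1.22 (0.819 to 1.85). With each cell thinned to 1000 UMIs only 4 members were measured, of which 3 were higher, with the interval above 1 in 2. H2-K1 was at 2.63 (1.80 to 3.95), H2-D1 at 1.49 (1.15 to 1.94) and B2m at 1.19 (0.980 to 1.44). Psmb8 was at 0.805 (0.471 to 1.39), so its direction turned. The same 4 were measured with 200 to 2500 genes and under 5% mitochondrial UMIs, where 3 were higher and Psmb8 was at 1.00 (0.699 to 1.44). Tap1, Tap2, Tapbp, Psmb9 and Psmb10 had too few UMIs under both settings. As a mean per cell Psmb8 was at 1.02. Under TMM scaling, which moved all log2 ratios in this class by -0.14, the members' median was 0.68.

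**Figure D5:**
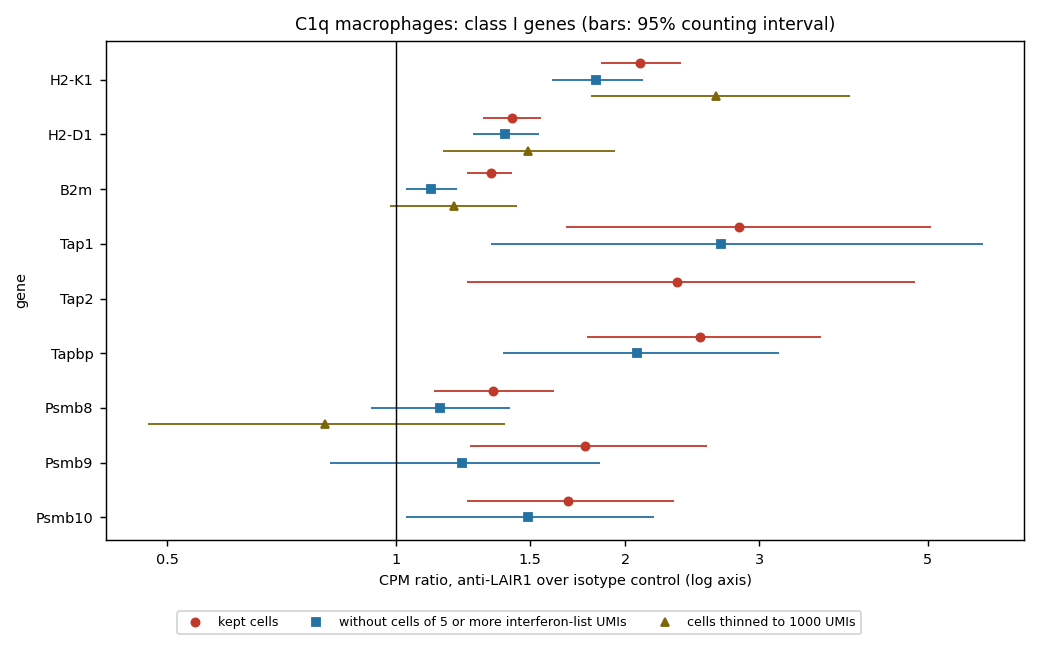
CPM ratio on a log axis, anti-LAIR1 over isotype control, of the 9 members measured in C1q macrophages, for kept cells (circles), without cells of at least 5 UMIs of the type I interferon list (squares) and with cells thinned to 1000 UMIs (triangles, 4 genes with enough UMIs). Bars are 95% counting intervals; H2-K1 stays between 1.83 and 2.63, and Psmb8 crosses 1 after thinning.

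Around the members, the rest of the class I pathway differed by list. In C1q macrophages 6 of 6 measured nonclassical and other class I genes were higher, with H2-Q7 at 91.0 and 35.9 CPM (2.53, 1.61 to 4.16) and H2-Q4 at 36.6 and 10.9 (3.34, 1.5 to 8.79). Both are close relatives of H2-K1 and H2-D1. The chaperone and trimming genes differed less, 4 of 4 higher from 1.10 for Calr to 1.48 for Erap1, which trims peptides. Of the constitutive subunits, 1 of 3 was higher and Psmb6 was lower, at 253 and 381 CPM (0.663, 0.559 to 0.787). Of the proteasome activator genes Psme2 was at 1.25 (0.987 to 1.58) and Psme3, of the nuclear activator, at 0.575 (0.362 to 0.916). Among regulators Irf1, a transcription factor that interferon induces, was at 52.0 and 34.4 CPM (1.51, 0.920 to 2.58).

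Classical monocytes had the next highest median of the members, 0.25 beside 0.02 over all genes, with patrolling monocytes at 0.21. With cells thinned to 1000 UMIs the order of these classes turned, at 0.20 and 0.40. In classical monocytes 9 of 9 measured members were higher, where 52.4% of all measured genes were. The interval lay above 1 in 5 of them, as for 11.5% of all measured genes. There the type I interferon list was at 752 and 297 CPM, with 8 of 8 genes higher and a median log2 ratio of 1.66, and 5 of 5 measured interferon-gamma GTPase genes were higher with a median of 1.01. In naive T cells the interferon lists had negative medians and the members small positive ones. In naive CD4 T cells 0 of 8 type I interferon-stimulated genes and 0 of 7 measured GTPase genes were higher, with medians of -0.87 and -0.92, and 1 of 11 measured regulators was higher, with a median of -0.60. The members' median there was 0.17, beside 0.07 over all genes, with 7 of 10 higher where 57.8% of all genes were, and it was 0.03 with raised gates and 0.08 under TMM scaling. Among the higher members was Psmb8 at 319 and 229.8 CPM (1.39, 1.25 to 1.54). In naive CD8 T cells 2 of 8 type I genes and 0 of 8 GTPase genes were higher, with medians of -0.65 and -0.72. The members' median in this class was 0.11, beside 0.04 over all genes, with 5 of 10 higher where 54.8% of all genes were. It was 0.04 under TMM scaling and 0.23 with cells thinned to 1000 UMIs. In B cells 7 of 7 measured GTPase genes were higher, with a median of 0.26, beside 0.14 for the members and 0.04 over all genes.

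Over the 26 values of 13 classes in 2 libraries, the gene with the pattern most like the members' mean among 7497 genes was Psme1, with a Pearson correlation of 0.83, followed by Tecr, Pbxip1, Rac2 and Pex16, each at 0.81 or above. Psme1 and Psme2 encode the PA28 activator of the proteasome, and Psme2 was at rank 13 with 0.79. The constitutive subunit genes were at 0.06 for Psmb5, -0.18 for Psmb6 and -0.12 for Psmb7. Among members, H2-D1 and B2m had a correlation of 0.92 over these values, Psmb8 and Psmb9 of 0.90, and H2-K1 and Tap1 of 0.82, while Tap2 and B2m had 0.08. The points share libraries, so these correlations are descriptions.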

How the data were processed

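The authors deposited raw counts, UMIs per gene and cell barcode, which Cell Ranger 5.0.0 had made on mm10 (per the labels' processing notes), in 1 table per library. Kept barcodes had 200 genes or more, 500 UMIs or more and a mitochondrial share below 10%. The doublet score was the share of simulated doublets among 50 neighbors, and the highest 0.8% per 1000 barcodes were removed, 524 and 275 cells. Gates used raw UMIs of marker genes. UMIs were summed per class and library. CPM have exact Poisson intervals, shares exact binomial intervals, and ratios exact conditional binomial intervals. A gene with at least 50 UMIs in a class was measured, and one past 1.5-fold was called. The ratio step was run on simulated Poisson counts. These held no variation between cells or libraries beyond counting error, so the run cannot show how the intervals fare with such variation. All 10 members are named, the 5 genes most like them, and of each pathway list up to the 2 highest and 2 lowest ratios in a class. Genes named beside melanoma cells, the proteasome partners and Psme2 among the like genes were added after their values were seen. Members and lists were chosen with earlier results of these data known. Likeness was taken over log2(CPM + 1) of genes at a mean of at least 10 CPM. Gene positions are those of GENCODE vM21, matched for 10 of 10 members. Python 3.11.15, numpy 2.4.6, scipy 1.17.1, pandas 2.3.3, scikit-learn 1.9.0, matplotlib 3.10.9, R 4.3.3 and edgeR 4.0.16 (TMM factors only) were used. Sequences for Tap2 and Nlrc5 and proteins were not used here.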

Additional observations from a re-analysis of the deposited data

Results flagged for a closer look

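4 members were higher with anti-LAIR1 in one class and lower in another, each beyond counting error, and the difference between the classes was not tested. H2-K1 was at a ratio of 2.09 in C1q macrophages and 0.850 in regulatory T cells. H2-D1 was at 1.42 and 0.820 and B2m at 1.33 and 0.805 in the same classes, and Tap1 was at 2.82 and 0.744. With 1 library per antibody, each class gives 1 sample per group.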

How the results depend on the processing

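No paired analysis was possible because there is 1 library per antibody and no test. The alternatives on the melanoma gate lowered to 2 UMIs, the CD8 gate, the interferon-high cells and the shared barcodes were chosen after seeing the data. The members' median log2 ratio was 0.41 to 0.95 in C1q macrophages, 0.17 to 0.31 in classical monocytes and -0.28 to -0.02 in regulatory T cells over the alternatives computed. In C1q macrophages the value of 0.41 (cells thinned to 1000 UMIs) came from only 4 measured members. So did that of 0.44, with 200 to 2500 genes and under 5% mitochondrial UMIs. The median turned to -0.02 in NK cells and -0.03 in pDCs when cells were thinned to 1000 UMIs, from 0.11 and 0.16. For each class it stayed between the medians of the members' lower and upper interval bounds. As a percent of the immune level, the summed members were 6.64 (anti-LAIR1) and 8.63 (control) with 200 to 2500 genes and under 5% mitochondrial UMIs, 13.5 and 10.4 with cells thinned to 1000 UMIs, 12.8 and 12.5 as a mean per cell, 7.03 and 7.74 without cells with a Ptprc UMI, and 21.2 in the anti-LAIR1 library with the lowered gate. So the higher value of the anti-LAIR1 library turned lower under the cell filter and without Ptprc, with overlapping intervals under both settings. The immunoproteasome share of melanoma cells was 0 in both libraries under the cell filter and thinned, 0 in the control library without Ptprc, and 18.2% in the anti-LAIR1 library with the lowered gate. In C1q macrophages the share was 36.4% and 29.5% under the cell filter and 37.5% and 34.0%, with overlapping intervals, when thinned, and in B cells it was 69.6% with anti-LAIR1 under the cell filter. Psmb8 in C1q macrophages turned from 1.34 to 0.805 when thinned, and was at 1.00 under the cell filter and 1.02 as a mean per cell. As a mean per cell Tap1 in that class was at 6.63 and Tapbp at 3.96. The cause was not tested. pDCs, classical monocytes and Spp1/Arg1 macrophages had under 25 cells in a library under the cell filter, Spp1/Arg1 macrophages also under the raised gates, and pDCs and Spp1/Arg1 macrophages without interferon-high cells, so these gave no value. Depth limits Nlrc5, Tap2 and the melanoma values.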
